A study of Mus musculus with 8 samples.

Results

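The 83 genes described here encode, in the nucleus, subunits of the mitochondrial respiratory chain and of ATP synthase, and were measured by single-nucleus RNA-seq in kidneys of 8 mice. They were chosen by symbol: Nduf followed by a, b, c, s or v and a digit, Sdha to Sdhd, any Uqcr gene, Cox4 to Cox8 followed by a letter, and any Atp5 gene. Of the 32285 genes in the feature list, 85 matched, and 83 of these had at least 100 unique molecular identifiers (UMIs) over the nuclei that passed quality control. Cox7b2 with 63 UMIs and Cox8c with 1 UMI lay below that limit, whereas Cox8b (101), Cox6a2 (107) and Cox4i2 (173) lay just above it. The rule used no comparison between groups, but Cox8b reached the limit only through the cKOt ZT4 libraries, which held 94 of its 101 UMIs. By complex, the genes comprised 36 of complex I, 4 of complex II, 8 of complex III, 18 of complex IV (counting Ndufa4 and Ndufa4l2) and 17 of ATP synthase (complex V).

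Complexes I and II take electrons from NADH and succinate, complex III passes them to cytochrome c and complex IV to oxygen. Complexes I, III and IV pump protons across the inner mitochondrial membrane, and ATP synthase uses the returning protons to make ATP. A small set of subunits is encoded by mitochondrial DNA, and all others, including every subunit of complex II, by nuclear genes. In the kidney this machinery supplies the ATP for sodium transport, and tubular segments with heavy transport work, such as the proximal tubule and the thick ascending limb, are rich in mitochondria.

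All mice were male C57BL/6J animals homozygous for floxed Bmal1 (Arntl), a core activator of the circadian clock. Ctrl mice had the floxed alleles alone, and their cKOt littermates also carried Pax8-rtTA and LC-1 (Cre) transgenes, so that deletion was limited to cells with Pax8 promoter activity, which are those of renal tubules. Both genotypes drank doxycycline at 2 mg/ml for 2 weeks from the age of 8 weeks, were kept under 12 h of light and 12 h of darkness, and were killed at 14 weeks at ZT4 or ZT16, which are hours after lights on. Each library came from 1 mouse, with 2 mice in each of the groups Ctrl ZT4, Ctrl ZT16, cKOt ZT4 and cKOt ZT16. Values are given in the order of replicates 1 and 2 within a group.

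After quality control, 81391 of 82784 barcodes (98.3%) remained, with 36548873 to 54500820 UMIs per library and a median of 3003.5 to 4830 UMIs per nucleus. Mitochondrially encoded subunits made up 0.015% to 0.033% of UMIs. Pairs of libraries shared 18 to 42 barcodes. Replicates differed more than counting noise would give (chi-square per degree of freedom up to 61.6 over genes). Arntl was at 38.3 and 33.1 CPM (counts per 1000000 protein-coding UMIs) in Ctrl ZT4, 154 and 159 in Ctrl ZT16, 296 and 201 in cKOt ZT4, and 296 and 266 in cKOt ZT16. Because these counts cover the whole gene, including parts outside the deletion, they cannot check the deletion. Of 14 clock genes, edgeR called 5 higher and 2 lower in cKOt at ZT4, 1 and 1 at ZT16, 4 higher and 3 lower at ZT16 than at ZT4 in Ctrl, 0 between time points in cKOt, and 2 in the interaction.

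The 83 genes held 1459697 UMIs, which was 0.386% of all UMIs in these nuclei. Complex I contributed 36.6% of them, ATP synthase 26.2%, complex IV 21.0%, complex III 9.18% and complex II 6.97%. In complex I the most UMIs fell on Ndufs4 (65901), an accessory subunit next to the NADH-oxidizing module, and Ndufs1 (44879), the largest iron-sulfur subunit. In complex II they fell on the flavoprotein Sdha (46919) and the iron-sulfur protein Sdhb (27603), and in complex III on the core protein Uqcrc2 (30955) and the hinge protein Uqcrh (21222). Cox4i1 (41313), the widespread isoform of subunit 4, and the small subunit Cox7c (36768) led complex IV. Atp5b (55196) and Atp5a1 (48708), the catalytic beta and the alpha subunit of the F1 head, led ATP synthase.

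UMIs rose with gene length among the 83 genes (Spearman correlation 0.459) and among protein-coding genes with at least 100 UMIs (0.447). Among cytosolic ribosomal protein genes they did not (0.007). Levels are therefore also given per kilobase of gene, a scale that by its division favors short genes. On that scale Cox8a, the ubiquitous isoform of subunit 8, stood highest at 41.1 CPM per kb, followed by Atp5b (24.5), Atp5g3 (23.8), which encodes the membrane c ring, and Cox6a1 (22.8). The median of the 83 genes was 5.32 CPM per kb and the lowest value was 0.0496. Ndufs4, first by UMIs, stood at only 2.05 CPM per kb. The genes were short, with a median length of 8888 bp against 27982 bp for 15178 protein-coding genes with at least 100 UMIs. Per kb they held a median of 1683.5 UMIs against 274 for those genes, whereas cytosolic ribosomal protein genes held 2833. Within the GENCODE annotation of GRCm39, 14 of the genes overlapped another gene on the same strand, 58 overlapped one on the other strand, and 7 had named pseudogenes. The remaining 21 genes had no overlap, but Ndufs5 and Ndufa12 among them had a pseudogene. Counts of genes with an overlap or a pseudogene are less certain than those of the others, since how such reads were assigned is not stated in the sources used.

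The printed stretches of sequence illustrate the motifs that recur before the transcription starts of these genes. For each complex 1 promoter is shown, chosen for its matches within the 150 bases printed. Beside them stands that of Cox8b, an isoform of muscle and brown fat, without any match. Other promoters of complex IV shared this lack, as given after the sequences. In the longer windows described after the sequences, other promoters of complexes III and V held more matches. Nuclear respiratory factor 1 (NRF1), GABP of the ETS family and YY1 are transcription factors long linked to such genes. Sequences are the 150 bases before the start from RefSeq, build GRCm38.p6, read 5′ to 3′ on the gene's strand (minus in each), with matches in capitals on either strand: GCGCANGCG for NRF1, CCGGAAG for ETS/GABP and AANATGGCG for YY1. The regions are chr16:37654369-37654518 (Ndufb4), chr13:74350241-74350390 (Sdha), chr4:116075071-116075220 (Uqcrh), chr5:115348959-115349108 (Cox6a1), chr16:84834977-84835126 (Atp5j) and chr7:140900447-140900596 (Cox8b).
Ndufb4: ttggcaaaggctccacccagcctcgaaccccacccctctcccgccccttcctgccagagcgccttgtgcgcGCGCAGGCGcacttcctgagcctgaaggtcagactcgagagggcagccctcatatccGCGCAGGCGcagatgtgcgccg
Sdha: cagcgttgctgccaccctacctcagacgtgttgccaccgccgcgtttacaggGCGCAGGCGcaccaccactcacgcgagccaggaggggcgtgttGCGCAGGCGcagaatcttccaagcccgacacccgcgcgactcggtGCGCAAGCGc
Uqcrh: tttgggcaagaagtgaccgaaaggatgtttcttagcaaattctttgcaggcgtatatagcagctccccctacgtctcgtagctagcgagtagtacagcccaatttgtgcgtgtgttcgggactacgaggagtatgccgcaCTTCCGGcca
Cox6a1: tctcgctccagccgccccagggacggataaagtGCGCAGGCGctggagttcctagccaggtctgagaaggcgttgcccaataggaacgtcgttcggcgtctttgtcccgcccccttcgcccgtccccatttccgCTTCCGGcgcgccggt
Atp5j: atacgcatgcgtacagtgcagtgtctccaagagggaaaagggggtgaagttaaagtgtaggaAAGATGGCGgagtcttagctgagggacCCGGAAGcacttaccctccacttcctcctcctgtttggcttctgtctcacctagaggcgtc
Cox8b: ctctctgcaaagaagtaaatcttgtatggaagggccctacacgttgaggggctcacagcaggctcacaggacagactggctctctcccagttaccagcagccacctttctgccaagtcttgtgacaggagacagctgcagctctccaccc
Sdha held 3 NRF1 matches and Ndufb4 2, Uqcrh held 1 ETS/GABP match, Cox6a1 held 1 of each, and Atp5j held 1 ETS/GABP and 1 YY1 match. Windows of 300 bases (250 before and 50 after the start) were found for 66 of the 83 genes, in 71 promoters. The NRF1 motif stood in 21 of these 71 (29.6%), against 6.25% of all 32851 promoters and 11.4% of the 15198 promoters of protein-coding genes with at least 100 UMIs. The ETS/GABP motif stood in 17 (23.9%, against 8.86% and 15.0%) and YY1 in 10 (14.1%, against 2.38% and 4.18%). TCAAGGTCA, the motif of estrogen-related receptors, stood in 2 (2.82%, against 0.423% and 0.263%), and TGACGTCA, the CREB motif, in 4 (5.63%, against 1.79% and 2.72%). CACGTG, the E-box that BMAL1 and CLOCK can bind, stood in 6 (8.45%), beside 7.15% of all promoters and 9.31% of those of protein-coding genes. By complex, NRF1 was in 9 of 33 promoters of complex I, 2 of 3 of complex II, 2 of 5 of complex III, 1 of 13 of complex IV and 7 of 17 of ATP synthase. In complex IV the ETS/GABP motif stood in 3 of 13 promoters and YY1 in 0. Cox5a, Cox5b, Cox7a2, Cox7b, Cox7c and Ndufa4 held no NRF1, ETS/GABP or YY1 match, so such a lack was not particular to Cox8b. Median GC was 57.3% in these 71 promoters, 52.7% in all and 59.7% in those of protein-coding genes, and its part in the shares was not tested.

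Summed over the whole kidney, the share of protein-coding UMIs on these genes was highest on average in Ctrl ZT16, and the other 3 groups overlapped each other. The share was 0.431% and 0.473% in Ctrl ZT4, 0.528% and 0.473% in Ctrl ZT16, 0.433% and 0.464% in cKOt ZT4, and 0.465% and 0.445% in cKOt ZT16. Both Ctrl ZT16 libraries lay above all cKOt libraries, whereas the Ctrl groups at ZT4 and ZT16 overlapped. Means were 0.452% ± 0.030 for Ctrl ZT4, 0.501% ± 0.039 for Ctrl ZT16, 0.448% ± 0.022 for cKOt ZT4 and 0.455% ± 0.014 for cKOt ZT16 (SD, n = 2). In each group the library with more UMIs had the higher share, and the part of depth was not tested. Both Ctrl ZT16 libraries also had the most nuclei of the thick ascending limb, the class with the highest level of these genes (16.0% and 13.7% of nuclei, against 10.0% to 13.4% in the other 6 libraries). They had the fewest nuclei of the proximal tubule, a class near the bottom (29.4% and 26.9%, against 29.8% to 38.6%), and the part of these shares in the result was not tested. Sums over the whole kidney do not separate a shift in the share of a cell type from a shift within its nuclei, and levels within cell classes are given further on.

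**Figure D1:**
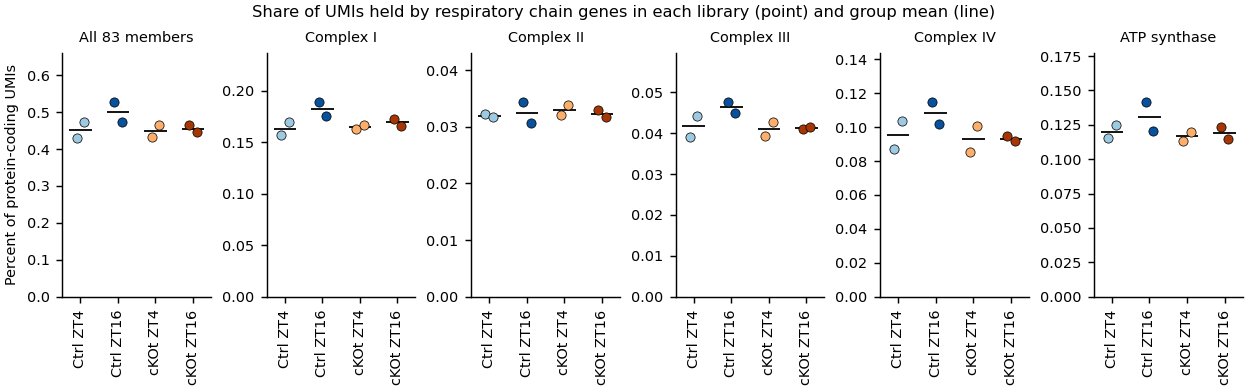
Percent of protein-coding UMIs held by all 83 genes and by each complex, with 1 panel each and axes starting at 0. Points are libraries and lines are group means, and Ctrl ZT16 replicate 1 is highest at 0.528% and Ctrl ZT4 replicate 1 lowest at 0.431% for all genes.

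By complex, the group means had the following order. Complex I averaged 0.163% of protein-coding UMIs in Ctrl ZT4, 0.182% in Ctrl ZT16, 0.165% in cKOt ZT4 and 0.169% in cKOt ZT16. ATP synthase averaged 0.120%, 0.131%, 0.117% and 0.119% in the same order, and complex IV 0.0953%, 0.108%, 0.0928% and 0.0930%. Complex II stayed between 0.0319% and 0.0330%, the narrowest span of the 5 complexes. Of the 78 genes with at least 1000 UMIs, 37 had their highest level in Ctrl ZT16 replicate 1, while 35 had their lowest in Ctrl ZT4 replicate 1 and 23 in cKOt ZT4 replicate 1.

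The effect of tubular Bmal1 deletion was tested at each time point with edgeR on UMIs summed per library, in 1 model of the 4 groups with adjustment over all protein-coding genes. At ZT4 edgeR called 0 of 83 genes, while 0.446% of all 16145 genes tested were called. Unadjusted p was under 0.05 for 3 genes, 2 with higher and 1 with lower levels in cKOt, against 8.87% of all genes. DESeq2 called 1 gene, Cox8b, and 2.16% of all genes. The median log2 fold change was 0.008, beside 0.003 for all genes, with 44 of 83 genes above 0, against 50.5% of all genes. Its sign hung on single Ctrl libraries, being -0.10 without Ctrl ZT4 replicate 1 and 0.10 without replicate 2. Left out in turn, cKOt ZT4 replicate 1 gave 0.03 and replicate 2 gave -0.05.

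Ndufv3, an accessory subunit of the flavoprotein arm that oxidizes NADH, had the smallest p at ZT4 after Cox8b. It was at 30.6 and 32.6 CPM in Ctrl ZT4 and at 41.7 and 48.4 CPM in cKOt ZT4. At ZT16 it was at 40.1 and 35.1 CPM in Ctrl and at 46.4 and 39.5 CPM in cKOt, which overlap. The log2 fold change at ZT4 was 0.51 (SE 0.14, adjusted p = 0.221 by edgeR). Cox4i2, the isoform of subunit 4 known from lung and from low oxygen, showed the opposite order. It measured 0.844 and 0.793 CPM in Ctrl ZT4 and 0.521 and 0.382 CPM in cKOt ZT4, with a log2 fold change of -0.86 (SE 0.33, adjusted p = 0.458 by edgeR). Atp5d, the delta subunit of the central stalk, measured 45.0 and 47.9 CPM in Ctrl ZT4 and 33.4 and 41.9 CPM in cKOt ZT4 (log2 fold change -0.30, adjusted p = 0.614 by edgeR), which was -0.15 without cKOt ZT4 replicate 1 and -0.47 without replicate 2. None of these differences passed the test.

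At ZT16 edgeR again called 0 genes, of 82 tested, while 0.174% of 16094 genes were called. DESeq2 also called 0, against 1.06% of all genes, and 2 genes had an unadjusted p under 0.05, both with lower levels in cKOt, against 6.1% of all genes. The median log2 fold change was -0.12 beside 0.003 for all genes, and 21 of 82 genes were above 0, against 50.7% of all genes. By complex the medians were -0.10 for complex I, 0.05 for complex II, -0.19 for complex III, -0.16 for complex IV and -0.09 for ATP synthase. As a measure of spread, the median deviation of 78 genes from their mean over libraries was taken per library on the log2 scale. Its SD between replicates was 0.082, pooled over the 4 groups, and it is not the SD of a fold change. The deviations were -0.153 and 0.049 in Ctrl ZT4, 0.158 and 0.072 in Ctrl ZT16, -0.102 and -0.027 in cKOt ZT4, and -0.011 and -0.004 in cKOt ZT16. Cytosolic ribosomal proteins moved with these genes in this contrast, with a median of -0.22 and 3 of 77 above 0 (0 called, 15 with unadjusted p under 0.05), and their part in the result was not tested. Mitochondrially encoded subunits, a sign of the purity of nuclei, set the cKOt ZT16 libraries apart with 0.0205% and 0.0153% of UMIs, against 0.0255% to 0.0327% in the other 6 libraries, and their part was not tested either.

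Atp5e, the epsilon subunit of the central stalk, had the smallest p at ZT16. Its levels were 39.0 and 37.9 CPM in Ctrl and 30.6 and 30.0 CPM in cKOt at ZT16, whereas at ZT4 Ctrl had 32.1 and 34.9 CPM and cKOt 39.1 and 32.9 CPM. The difference at ZT16 was -0.35 on the log2 scale (SE 0.13, adjusted p = 0.699 by edgeR). Ndufa13, an accessory subunit also known as GRIM-19, came next at 72.6 and 66.7 CPM in Ctrl and 49.2 and 54.3 CPM in cKOt (-0.43, SE 0.16, adjusted p = 0.735 by edgeR). Its levels at ZT4, 51.0 and 67.3 CPM in Ctrl and 42.6 and 53.1 CPM in cKOt, overlapped. Ndufa13 shares its strand with the overlapping gene Yjefn3, which was at 3.64 and 3.67 CPM in Ctrl ZT16 and 4.55 and 3.17 CPM in cKOt ZT16. Ndufb10, of the membrane arm of complex I, was at 36.8 and 34.4 CPM in Ctrl and 29.2 and 29.7 CPM in cKOt (-0.27, SE 0.12, adjusted p = 0.822 by edgeR). None of these 3 differences passed the test. The genes were named for their small p, so the lack of overlap between their groups at ZT16 gives no independent support. In the upward direction Cox6a2, a heart and muscle isoform, came first with 0.0847 and 0.328 CPM in Ctrl ZT16 and 0.586 and 0.291 CPM in cKOt ZT16 (1.16, SE 0.70, adjusted p = 0.954 by edgeR), and its groups overlapped. Its difference ran from 0.42 without Ctrl ZT16 replicate 1 to 2.35 without replicate 2, and was 0.55 without cKOt ZT16 replicate 1.

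The comparison of ZT16 with ZT4 within a genotype addressed variation over the day, and it uses the same libraries as the genotype comparisons. In Ctrl, edgeR called 0 of 82 genes, while 0.142% of 16165 genes were called. DESeq2 called 0 (1.44% of all genes), and 2 genes had an unadjusted p under 0.05, both with higher levels at ZT16, against 9.95% of all genes. The median log2 fold change was 0.15, beside -0.003 for all genes, and 75 of 82 genes were above 0, against 49.4% of all genes. Complex I had a median of 0.18, complex III of 0.18, complex IV of 0.16, ATP synthase of 0.11 and complex II of 0.04. The size of this median hung on the Ctrl ZT4 libraries: it was 0.06 without replicate 1, which had the fewest UMIs of all libraries, and 0.26 without replicate 2. Ribosomal proteins had a median of 0.29, with 76 of 77 above 0 (0 called, 36 with unadjusted p under 0.05), and their part was not tested.

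Ndufb10 led this contrast with 25.5 and 29.8 CPM in Ctrl ZT4 and 36.8 and 34.4 CPM in Ctrl ZT16 (0.36, SE 0.12, adjusted p = 0.372 by edgeR). Cox4i1 followed with 108 and 131 CPM at ZT4, below its 153 and 148 CPM at ZT16 (0.34, SE 0.13, adjusted p = 0.436 by edgeR), a difference that was 0.21 without Ctrl ZT4 replicate 1. In cKOt ZT4, Cox4i1 was at 115 and 131 CPM, which overlapped its 129 and 131 CPM in cKOt ZT16. Ndufb4, a membrane-arm subunit whose promoter is printed above, was at 39.3 and 45.6 CPM in Ctrl ZT4 and 49.4 and 51.7 CPM in Ctrl ZT16 (0.25, SE 0.12, adjusted p = 0.539 by edgeR), and its difference was 0.15 without Ctrl ZT4 replicate 1. Cox4i2 was the only gene of these with a lower level, at 0.487 and 0.520 CPM in Ctrl ZT16 (-0.70, SE 0.32, adjusted p = 0.529 by edgeR).

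In cKOt mice the same comparison of time points gave 0 called genes of 83 with edgeR, and 0% of all 16069 genes were called. DESeq2 called Cox8b and 1.02% of all genes, and 2 genes had an unadjusted p under 0.05, Cox8b and Atp5k, both with lower levels at ZT16, against 8.32% of all genes. The median log2 fold change was 0.03, beside -0.009 for all genes, with 54 of 83 genes above 0, against 48.1% of all genes. Without cKOt ZT4 replicate 1 it was 0.02 and without replicate 2 it was 0.09. Atp5k, subunit e of the membrane part of ATP synthase, was at 47.5 and 36.8 CPM in cKOt ZT4 and 34.6 and 29.7 CPM in cKOt ZT16 (-0.39, SE 0.15, adjusted p = 0.548 by edgeR). Its difference was -0.19 without cKOt ZT4 replicate 1. Ndufa4l2, a relative of Ndufa4 that is induced by low oxygen, measured 0.781 and 0.884 CPM at the earlier time and 1.20 and 1.61 CPM at the later (0.75, SE 0.33, adjusted p = 0.612 by edgeR). Neither gene passed the test. Both were named for their small p, so the lack of overlap between their groups gives no independent support.

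Whether the genotype effect differed between the time points was tested as an interaction. EdgeR called 0 of 83 genes and DESeq2 0, while edgeR called 0.0183% and DESeq2 0.294% of 16351 genes. An unadjusted p under 0.05 was reached by 1 gene (4.35% of all genes), Atp5e, with a difference of -0.45 (SE 0.18, adjusted p = 1.00 by edgeR). The median difference was -0.11, and 16 of 83 genes were above 0, against 49.2% of all genes. Ribosomal proteins had a median of -0.31 in the same test.

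**Figure D2:**
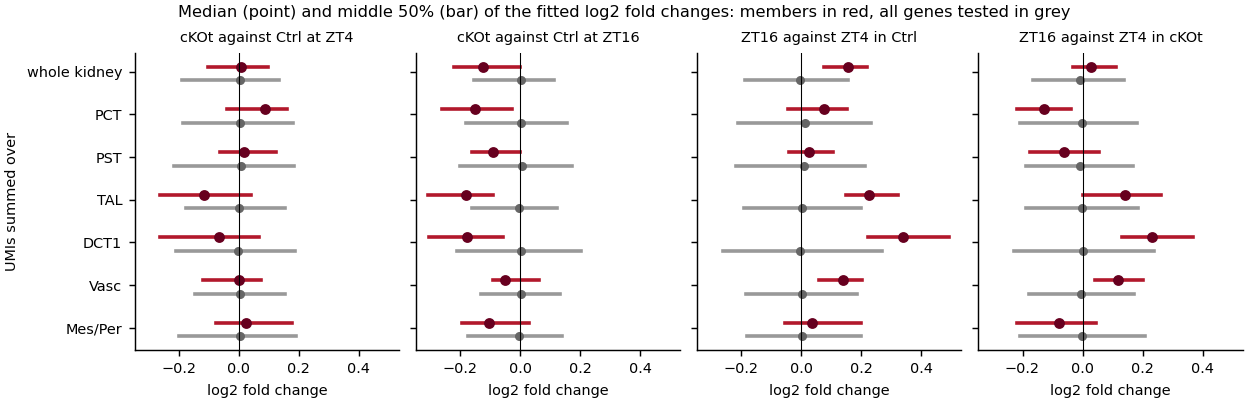
Log2 fold changes fitted by edgeR in the 4 comparisons between groups, for UMIs summed over the whole kidney and over 6 cell classes. Points are medians and bars the middle 50% of genes, in red for the respiratory chain genes (called members in the title) and in grey for all genes tested, and the red medians for the whole kidney lie at 0.008, -0.12, 0.15 and 0.03 from left to right.

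Cox8b, the isoform of subunit 8 found in muscle and brown fat, was the gene with the largest difference and among the rarest. It had 1 and 4 UMIs in Ctrl ZT4, 1 and 0 in Ctrl ZT16, 17 and 77 in cKOt ZT4, and 1 and 0 in cKOt ZT16. The cKOt ZT4 libraries thus held 94 of 101 UMIs, most of them in replicate 2, and the remaining libraries at most 4 each. In CPM these were 0.0324 and 0.0962 in Ctrl ZT4, 0.492 and 1.84 in cKOt ZT4, 0.0212 and 0 in Ctrl ZT16, and 0.0234 and 0 in cKOt ZT16. The ratio of cKOt ZT4 to Ctrl ZT4 was 17.5 (95% counting interval 7.24 to 55.1), and that of cKOt ZT4 to cKOt ZT16 was 100.0 (17.5 to 3990). Both rest on denominators of 5 UMIs and 1 UMI, and the intervals cover counting error only. With edgeR the log2 fold change against Ctrl at ZT4 was 4.05 (SE 0.84, adjusted p = 0.116), and that between time points in cKOt was -6.25 (SE 1.07, adjusted p = 0.145). DESeq2 called both, with adjusted p of 0.0141 and 0.0139, and the edgeR interaction was -4.00 (SE 3.20, adjusted p = 1.00). Since Cox8b was among the 83 genes only through its UMIs in cKOt ZT4, a difference of that group was fixed by the choice, and these tests give it no independent support. Without cKOt ZT4 replicate 2 the difference at ZT4 was 2.79 (adjusted p = 0.216 by edgeR) and that between time points -4.98 (adjusted p = 0.335 by edgeR).

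Adipocyte-like nuclei and several of their genes were also concentrated in the cKOt ZT4 libraries. A cluster of 76 adipocyte-like nuclei held 25 and 41 nuclei in cKOt ZT4, 1 and 2 in Ctrl ZT4, 5 and 0 in Ctrl ZT16, and 2 and 0 in cKOt ZT16. These nuclei contained 24 of the 101 Cox8b UMIs (23.8%) but 50 of 32245 UMIs of Cox8a. Ucp1, the uncoupling protein of brown fat, had 3 and 2 UMIs in Ctrl ZT4, 65 and 411 in cKOt ZT4, 2 and 0 in Ctrl ZT16, and 1 and 1 in cKOt ZT16. Plin1, a coat protein of lipid droplets, had 13 and 18, 153 and 295, 30 and 4, and 23 and 4 UMIs in the same order, of which 79.3% lay in adipocyte-like nuclei. Cox7a1, a subunit isoform of muscle and brown fat, did not share this pattern, with 53 and 80 UMIs in Ctrl ZT4 and 64 and 86 in cKOt ZT4. The summed share of 8 brown fat genes overlapped, at 0.0554% and 0.0715% of protein-coding UMIs in Ctrl ZT4 and 0.0561% and 0.0633% in cKOt ZT4. That sum held 183149 UMIs, only 485 of them from Ucp1 and 762 from Cidea, so it could hardly register these nuclei. Of 7 brown fat genes tested in whole-kidney sums, edgeR called 0 in the other comparisons and 2 higher in cKOt at ZT4, Cidea (2.96, adjusted p = 0.0239) and Ucp1 (6.34, adjusted p = 0.0377). Without the adipocyte-like nuclei, an alternative chosen after seeing the data, the Cox8b difference at ZT4 was 3.63 (adjusted p = 0.186 by edgeR, 0.0889 by DESeq2). Between time points in cKOt it was then -5.83 (adjusted p = 0.241 by edgeR, 0.0507 by DESeq2), so that neither tool called Cox8b.

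**Figure D3:**
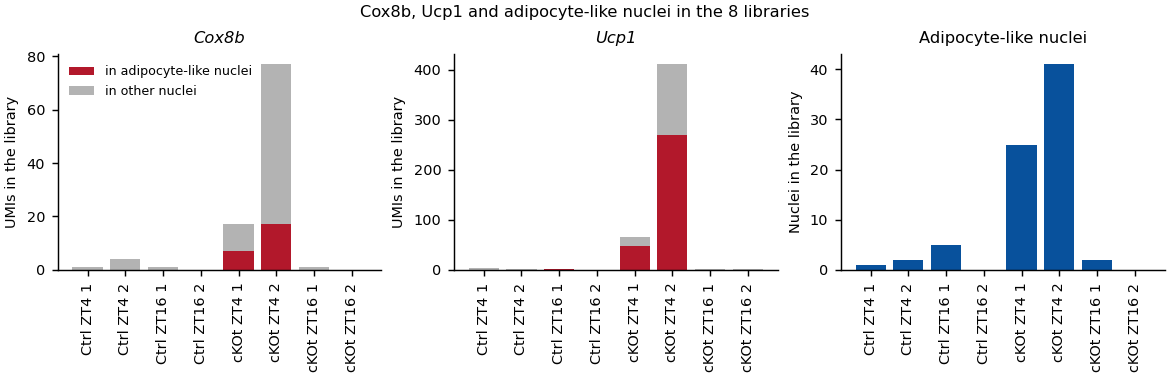
UMIs of Cox8b and of Ucp1 in each library, in red for adipocyte-like nuclei and in grey for other nuclei, and the number of adipocyte-like nuclei, with bars starting at 0. All 3 are highest in the cKOt ZT4 libraries, with 17 and 77 UMIs for Cox8b.

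To compare cell types, nuclei were clustered without the 83 genes and without mitochondrial genes, and 35 of 40 clusters (80104 nuclei, 98.4%) resembled 1 of 22 cell types by their markers. Class names therefore stand for nuclei that are like the named type. The thick ascending limb (TAL), which reabsorbs sodium chloride and dilutes the urine, had the highest share of protein-coding UMIs on the genes, 0.690% ± 0.064 (SD over 8 libraries, range 0.618% to 0.821%). Acid-secreting type A intercalated cells (aIC) had 0.648%, the first part of the distal convoluted tubule (DCT1) 0.642% ± 0.079, adipocyte-like nuclei 0.622% in the 2 libraries with enough nuclei, and the connecting tubule (CNT) 0.617%. The proximal tubule stood near the bottom of the order, with 0.384% ± 0.023 in its straight part (PST, 0.351% to 0.416%) and 0.359% ± 0.023 in its convoluted part (PCT, 0.320% to 0.387%). Podocytes (Podo), the filter cells of the glomerulus, were lowest with 0.305% ± 0.021.

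Every library of TAL nuclei thus lay above every library of PCT, PST and Podo nuclei, whereas each class overlapped the next one in the order. Between these ends lay the cortical (CCD, 0.575%) and medullary (MCD, 0.546%) collecting duct, base-secreting type B intercalated cells (bIC, 0.565%), the macula densa (MD, 0.560%) and the thin descending limb (thinDL, 0.533%). They were followed by endothelium (Vasc, 0.520%), smooth muscle and juxtaglomerular cells (SMC/JGC, 0.507%), urothelium (UT, 0.499%), the second part of the distal convoluted tubule (DCT2, 0.496%), T and NK cells (TC/NK, 0.490%) and myeloid cells (Myel, 0.452%). B cells (BC) had 0.401%, in a cluster that was also led by the dendritic cell genes Flt3 and Clec9a, a class named from markers of mesangial cells, pericytes and their stroma (Mes/Per) 0.363%, and the thin ascending limb (thinAL) 0.341%. The largest Mes/Per cluster (4753 of 8935 nuclei) was led by Ak5, Kcnd3 and Fbln5, and by Col14a1, a gene known from fibroblasts, and a cluster of 155 nuclei by Sfrp4, Clec3b and Dcn, so the class is not of mesangial cells and pericytes alone.

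As UMIs per nucleus rather than shares, the order was different. The named classes with the most UMIs on these genes were adipocyte-like nuclei (33.0 per nucleus) and bIC (28.5). The genes had 25.1 UMIs per TAL nucleus and 26.3 per DCT1 nucleus, but also 26.1 per PST nucleus and 16.6 per PCT nucleus, against 10.5 per Vasc and 8.43 per Mes/Per nucleus. PST nuclei were the deepest of the named classes, with a median of 7275.5 UMIs against 3853.5 in TAL. Over the 22 classes, the Spearman correlation of the share with the median UMIs per nucleus was 0.126, as a description of classes that share libraries. That with tricarboxylic acid cycle genes was 0.719, with assembly factors 0.440, with the mitochondrially encoded subunits 0.302, with ribosomal proteins 0.0435 and with proximal tubule mRNAs found in other nuclei -0.0785. The complexes ranked the classes alike, with correlations of complex I of 0.977 with ATP synthase, 0.973 with complex III, 0.866 with complex IV and 0.833 with complex II.

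**Figure D4:**
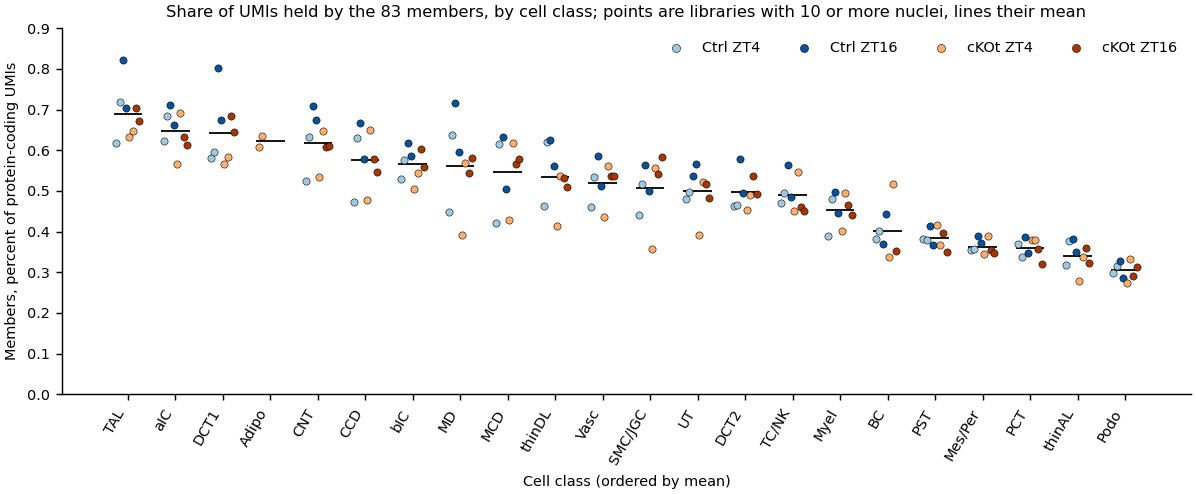
Percent of protein-coding UMIs held by the 83 genes (called members on the axis) in the 22 cell classes, ordered by mean. Points are libraries with at least 10 nuclei of the class, colored by group, and lines their mean, which is 0.690% in TAL, 0.359% in PCT and 0.305% in Podo.

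Of the 83 genes, 20 had their highest mean level in adipocyte-like nuclei, 18 in TAL, 8 in aIC and 7 in DCT1, and none in PST, Podo, Myel, thinAL, CNT or DCT2. The adipocyte-like means rest on 2 libraries of 25 and 41 nuclei, both cKOt ZT4, so that their order against other classes is less certain. Most genes were spread evenly: among 79 genes with at least 500 UMIs the Gini coefficient over classes, which is 0 for equal levels and 1 for presence in a single class, had a median of 0.163 and a range of 0.103 to 0.544. Cox7b, a small subunit of complex IV, ranged from 143 CPM in TAL to 37.5 CPM in thinAL (Gini 0.221). Ndufs1 had 261 CPM in adipocyte-like (SD 78.2) and 235 CPM in DCT1 nuclei (SD 28.9), and 83.4 CPM in Podo (0.218). Sdhb had 140 and 128 CPM in the same classes (SD 92.1 and 18.7) and 42.3 CPM in SMC/JGC (0.210). Ndufs3, a core subunit of the peripheral arm, had 142 CPM in DCT1 and 48.2 CPM in SMC/JGC (0.207).

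Sdhd, a membrane anchor of complex II, ranged from 40.2 CPM in bIC to 7.02 CPM in SMC/JGC (Gini 0.258). Cox5b ranged from 85.1 CPM in MD to 21.6 CPM in PCT (0.205), and Cox7a2l from 84.5 CPM in adipocyte-like nuclei to 18.9 CPM in PST (0.202). Ndufb8 ranged from 152 CPM in thinDL to 33.4 CPM in PCT (0.207), and it overlaps Gm20538 on the same strand. For these 3 genes the lowest class was in the proximal tubule.

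Several tissue isoforms of complex IV had a large part of their UMIs in 1 class. Cox6b2, known as the testis isoform of subunit 6B, reached 21.9 CPM in Mes/Per (up to 35.2 in a single library), with at most 5.5 CPM in any other class. Mes/Per nuclei held 454 of its 1049 UMIs (43.3%), and there it made up 26.8% of the UMIs of Cox6b1 and Cox6b2 together. Ndufa4l2 was at 31.9 CPM in SMC/JGC (11.1 to 65.7) and 10.7 CPM in Mes/Per (5.68 to 15.0), and made up 21.7% and 12.2% of the UMIs of Ndufa4 and Ndufa4l2 in these classes.

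Cox4i2 was also highest in SMC/JGC, with 31.9 CPM over all libraries, 0 to 52.4 CPM in single libraries and 41 of its 173 UMIs (23.7%), and the next class, thinAL, had 2.5 CPM. Cox6a2 was found mostly in PCT, with 75 of its 107 UMIs (70.1%) and 1.12 CPM (0.3 to 2.24). Cox7a1, the heart and muscle isoform of subunit 7A, was the most uneven of the genes with at least 500 UMIs (Gini 0.544), at 14.2 CPM in adipocyte-like nuclei from 6 UMIs and 6.25 CPM in aIC, while TAL held 129 of its 583 UMIs (22.1%). Cox8b reached 56.9 CPM in adipocyte-like nuclei, 32.4% of the UMIs of its family there. Cox7b2, left out for its 63 UMIs, had 23 of them (36.5%) in Podo, at 11.3 CPM. These counts are small, and their spread between libraries is wide.

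The c ring of ATP synthase is encoded by 3 genes with the same mature protein. Atp5g3 had its largest share of their UMIs in adipocyte-like nuclei (58.2%) and Atp5g2 in Podo (41.9%). Atp5g1 made up 27.6% in TAL and 30.6% in BC, its largest share.

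**Figure D5:**
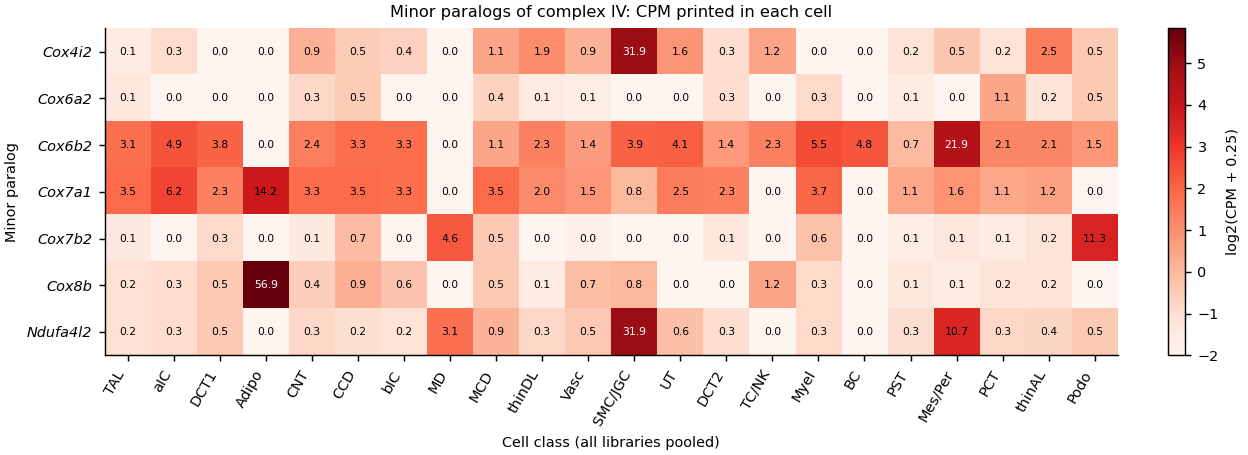
Heat map of the rarer isoforms of complex IV (vertical axis) in the cell classes (horizontal axis), with CPM pooled over all libraries printed in each cell and color on a log2 scale. Cox6b2 is highest in Mes/Per at 21.9 CPM, Cox4i2 and Ndufa4l2 in SMC/JGC at 31.9 CPM each, and Cox8b in adipocyte-like nuclei at 56.9 CPM.

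Within classes the comparisons were repeated in 4 tubular classes (PCT, PST, TAL and DCT1) and in Vasc and Mes/Per, which the Pax8 promoter does not reach. In none of the 6 classes and 5 comparisons did edgeR or DESeq2 call any of the genes, while DESeq2 called 0.00764% to 1.94% of all genes. The clusters behind the proximal classes differed between genotypes in PST and between libraries in PCT. In PST, a cluster led by Synpr, Anks1b and Nwd2 held 50.5% to 66.4% of the nuclei of each Ctrl library but 0.0687% to 1.03% in cKOt, and one led by Col6a6, Nalcn and Tmprss9 held 1.90% to 21.6% in Ctrl and 65.1% to 73.3% in cKOt, while the other was at 26.6% to 36.9% in all libraries. In PCT, a cluster led by Chrna7, Col8a1 and Grid1 held 18.2% and 4.86% in Ctrl ZT4, 11.0% and 53.8% in Ctrl ZT16, 76.3% and 24.6% in cKOt ZT4, and 74.0% and 77.4% in cKOt ZT16. In Mes/Per, the largest cluster held 54.7% and 61.5% in Ctrl ZT4 and 53.2% and 48.4% in Ctrl ZT16. In cKOt it held 45.6% and 31.8% at ZT4, and 68.2% and 60.7% at ZT16. The part of this make-up in the PCT, PST and Mes/Per values, those of Ndufv3, Ppard, Taco1 and Dio2 included, was not tested. DCT1 was a single cluster. In DCT1, between time points in Ctrl, edgeR called 0 of 78 genes and 0.642% of all genes. The unadjusted p was under 0.05 for 20 of the 78, each with a higher level at ZT16, against 13.2% of all genes. The median log2 fold change was 0.34 beside -0.005 for all genes, and 74 of 78 lay above 0, against 49.5% of all genes. In cKOt the same comparison gave a median of 0.23, with 72 of 77 above 0 (50% of all genes), 7 with unadjusted p under 0.05 (8.56%) and 0 called (0.14%). Of the 78 genes with at least 1000 UMIs, 40 had their highest DCT1 level in Ctrl ZT16 replicate 1, and 13 lay there over 1.5 times the mean of the other DCT1 libraries. Without that library the median was 0.26, with 70 of 79 genes above 0, and over the 4 Ctrl libraries left out in turn it ranged from 0.26 to 0.41.

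Ndufb7, of the membrane arm of complex I, had the smallest p in DCT1. It was at 21.3 and 30.3 CPM in Ctrl ZT4 and 48.7 and 55.6 CPM in Ctrl ZT16, and at 29.0 and 27.1 CPM in cKOt ZT4 and 39.3 and 40.2 CPM in cKOt ZT16. Both genotypes had higher levels at ZT16, and the Ctrl difference was 0.99 (SE 0.26, adjusted p = 0.0841 by edgeR). Atp5d was at 42.6 and 38.9 CPM in cKOt ZT4 and 70.6 and 71.3 CPM in cKOt ZT16 (0.80, adjusted p = 0.249 by edgeR). For Ndufa13, Ctrl ZT4 had 75 and 91.7 CPM and cKOt ZT4 46.3 and 48.8 CPM (-0.82, SE 0.21, adjusted p = 0.188 by edgeR). In the genotype comparison of DCT1 at ZT4 the median was -0.07, with 0 called (0.315% of all genes) and 3 genes with unadjusted p under 0.05 (5.74%). At ZT16 it was -0.18, with 0 called (0.167%) and 5 genes with unadjusted p under 0.05 (6.32%), and -0.10 without Ctrl ZT16 replicate 1. The median at ZT4 lay at -0.03 without cKOt ZT4 replicate 1, -0.16 without replicate 2, and -0.04 without Ctrl ZT4 replicate 2.

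In TAL the median between time points was 0.22 in Ctrl, with 76 of 79 genes above 0 (50.5% of all genes) and 0 called (1.16%). In cKOt it was 0.14, with 59 of 79 above 0 (49.6% of all genes) and 0 called (0.522%). The unadjusted p was under 0.05 for 11 genes in Ctrl (11.9% of all genes) and 7 in cKOt (10.1%), with higher levels at ZT16 in each. Cox4i1 was at 169 and 208 CPM in Ctrl ZT4 and 241 and 250 CPM in Ctrl ZT16 (adjusted p = 0.231 by edgeR). Between genotypes the TAL median was -0.18 at ZT16, with 10 of 79 above 0 (49% of all genes), 12 with unadjusted p under 0.05 (5.42%) and 0 called (0.169%). At ZT4 it was -0.11, with 23 of 79 above 0 (50% of all genes), 2 with unadjusted p under 0.05 (7.09%) and 0 called (0.519%). Ctrl ZT16 replicate 1 was the highest library for 53 of the genes in TAL. Without it the TAL median was 0.13 between time points in Ctrl and -0.08 between genotypes at ZT16. The Ctrl ZT4 libraries moved the medians as well: between time points in Ctrl it was 0.10 without replicate 1 and 0.41 without replicate 2, and between genotypes at ZT4 -0.26 and 0.05, a change of sign.

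In PCT the median between time points was 0.07 in Ctrl, with 0 called (0.554% of all genes) and 1 gene with unadjusted p under 0.05 (11.5%). In cKOt it was -0.13, with 0 called (0.0225%) and 3 genes with unadjusted p under 0.05 (8.5%). Between genotypes it was 0.09 at ZT4, with 0 called (0.739%) and 1 gene with unadjusted p under 0.05 (8.44%), and -0.15 at ZT16, with 0 called (0.213%) and 5 such genes (6.36%). The interaction had a median of -0.20, with 12 of 80 genes above 0 (49.3% of all genes), 0 called (0.0518%) and 2 with unadjusted p under 0.05 (4.8%). Of 78 genes, 30 had their lowest PCT level in cKOt ZT16 replicate 2, where the share was 0.320% against 0.338% to 0.387% elsewhere. Without it the median was -0.07 in cKOt between time points, -0.07 between genotypes at ZT16 and -0.16 for the interaction. With each library left out in turn, the PCT medians ranged from 0.02 (without Ctrl ZT16 replicate 1 or Ctrl ZT4 replicate 2) to 0.08 between time points in Ctrl, from -0.18 to -0.07 in cKOt, from 0.05 (without Ctrl ZT4 replicate 2) to 0.09 at ZT4, from -0.23 (without cKOt ZT16 replicate 1) to -0.07 at ZT16, and from -0.26 to -0.14 for the interaction. Ndufv3 in PCT was at 28.6 and 29.6 CPM in Ctrl ZT4, 45.6 and 45.9 CPM in Ctrl ZT16, 42.1 and 54.3 CPM in cKOt ZT4, and 44.7 and 38.7 CPM in cKOt ZT16. Ctrl ZT4 thus lay below the other 3 groups. Since Ndufv3 was named for its small p in whole-kidney sums of these libraries, that order gives no independent support. The log2 fold change was 0.73 for genotype at ZT4 (SE 0.17, adjusted p = 0.110 by edgeR), 0.65 for time in Ctrl (SE 0.17, adjusted p = 0.158 by edgeR) and -0.86 for the interaction (SE 0.24, adjusted p = 0.669 by edgeR).

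In PST, Ndufv3 was at 34.2 and 35.6 CPM in Ctrl ZT4, 49.5 and 39.6 CPM in Ctrl ZT16, 48.6 and 62.4 CPM in cKOt ZT4, and 55.6 and 48.2 CPM in cKOt ZT16 (genotype at ZT4 0.67, SE 0.18, adjusted p = 0.262 by edgeR). Ctrl ZT4 was below cKOt ZT4 as in PCT, but in nuclei of the same mice, which gives no independent support either. PST medians stayed between -0.09 and 0.03 in the 4 comparisons between groups, with 0 called (0.664% and 0.52% of all genes between genotypes at ZT4 and ZT16, 0.125% and 0% between time points in Ctrl and cKOt). The unadjusted p was under 0.05 for 1, 3, 0 and 4 genes in the same order, against 8.07%, 8.38%, 9.12% and 5.79% of all genes. With 1 library left out in turn, the PST medians changed sign at ZT4 (-0.06 to 0.08 over the cKOt ZT4 libraries), in Ctrl and in cKOt between time points, and ranged from -0.13 to -0.07 at ZT16. In cKOt ZT4 replicate 1, 6 genes lay over 1.5 times the mean of the other PST libraries. Atp5k was at 66.0 CPM there and 21.8 to 34.8 CPM elsewhere, and Atp5e at 58.3 CPM against 22.1 to 31.3 CPM. The others were Ndufb1-ps, Uqcr10, Ndufa3 and Ndufc1. Without cKOt ZT4 replicate 2, which leaves that library alone in its group and assumes it to vary like the others, edgeR called Atp5e in PST (0.99, adjusted p = 0.0439).

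In Vasc, endothelium without the deletion, the median between time points was 0.14 in Ctrl, with 68 of 77 above 0 (50.5% of all genes) and 0 called (0.552%), and 0.12 in cKOt, with 63 of 78 above 0 (49.1%) and 0 called (0.196%). In each genotype 3 genes had an unadjusted p under 0.05 (9.87% and 8.08% of all genes). Single libraries carried these medians. Of 78 genes, 43 had their lowest Vasc level in cKOt ZT4 replicate 1 and 31 their highest in Ctrl ZT16 replicate 1, and the share was 0.435% and 0.562% in cKOt ZT4 beside 0.537% and 0.536% in cKOt ZT16. The cKOt median was -0.02 without cKOt ZT4 replicate 1 and 0.31 without replicate 2. The Ctrl median was 0.04 without Ctrl ZT16 replicate 1, 0.03 without Ctrl ZT4 replicate 1 and 0.27 without Ctrl ZT4 replicate 2. Between genotypes the medians were 0.002 at ZT4 (0 called, 0.109%; -0.22 to 0.12 over the cKOt ZT4 libraries left out) and -0.05 at ZT16 (0 called, 0.0703%; 0.04 without Ctrl ZT16 replicate 1), with 0 genes at unadjusted p under 0.05 (4.73% and 3.51%). In Mes/Per the medians were 0.04 and -0.08 between time points in Ctrl and cKOt, with 0 called (0.132% and 0.435%) and 0 and 6 genes at unadjusted p under 0.05 (7.41% and 9.98%). Between genotypes they were 0.02 and -0.11 at ZT4 and ZT16, with 0 called (0% and 0.031%) and 3 and 0 genes at unadjusted p under 0.05 (7.87% and 3.82%). The Mes/Per median changed sign between time points in Ctrl without Ctrl ZT16 replicate 1 (-0.003), and between time points in cKOt (0.02) and between genotypes at ZT4 (-0.04) without cKOt ZT4 replicate 2, and it was -0.04 at ZT16 without Ctrl ZT16 replicate 1. The interaction in the other 5 classes had 0 genes called, against 0.0529% of all genes in TAL, 0.0447% in DCT1 and 0% in PST, Vasc and Mes/Per. Its median was -0.07 in TAL, -0.06 in DCT1, -0.08 in PST, -0.005 in Vasc and -0.14 in Mes/Per. At unadjusted p under 0.05 it had 0, 0, 1, 0 and 4 genes in this order of classes, against 3.26%, 4.15%, 3.59%, 3.46% and 6.53% of all genes.

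Genes that build and feed the chain were examined in the same fits. In the whole kidney none of 46 assembly factors, 19 genes of electron carriers and coenzyme Q synthesis, 23 regulators of mitochondrial genes, 17 tricarboxylic acid cycle genes or 8 proximal tubule mRNAs was called by edgeR in any of the 5 comparisons. At unadjusted p under 0.05 there were at most 3 assembly factors, 2 carrier genes, 2 regulators and 0 cycle genes in any comparison. Of all genes, 4.35% to 9.95% were under that limit. Of the 8 proximal tubule mRNAs up to 4 were, which is above the share of all genes. Between time points in Ctrl, the median log2 fold change was 0.08 for assembly factors, -0.02 for carriers, 0.09 for regulators, 0.10 for the cycle and -0.005 for proximal tubule mRNAs, beside 0.15 for the subunits. For cKOt against Ctrl at ZT16 the medians were 0.04, 0.005, 0.03, 0.05 and 0.11 in the same order, beside -0.12 for the subunits. Of these 7 lists, ribosomal proteins included, only the subunits and the ribosomal proteins had negative medians in that comparison.

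Within DCT1 and TAL, assembly factors and cycle genes had medians above 0 between time points as well. Between time points in DCT1 of Ctrl mice, the median was 0.29 for assembly factors (36 of 45 above 0, 10 at unadjusted p under 0.05, 1 called) and 0.44 for the tricarboxylic acid cycle (16 of 17, 8 and 0), beside 0.34 for the subunits, and of all genes 49.5% were above 0, 13.2% at unadjusted p under 0.05 and 0.642% called. In DCT1 of cKOt mice it was 0.26 for assembly factors (35 of 46) and 0.19 for the cycle (15 of 17), beside 0.23 for the subunits and 50% of all genes above 0. In TAL of Ctrl mice it was 0.17 for assembly factors (33 of 46) and 0.13 for the cycle (14 of 17), beside 0.22 for the subunits and 50.5% of all genes above 0. A few genes of the lists were called within classes. Ppard, a nuclear receptor for fatty acids, rose in PST of cKOt mice at ZT4, from 29.7 and 23.2 CPM in Ctrl to 248 and 121 CPM (2.80, SE 0.38, adjusted p = 0.0151 by edgeR). It also rose in DCT1, from 46.9 and 33.6 CPM to 169 and 72.4 CPM (1.60, SE 0.30, adjusted p = 0.0182 by edgeR). Without a call, both cKOt libraries also lay above both Ctrl libraries at ZT4 in PCT (166 and 75.9 CPM against 43.5 and 30.6) and TAL, but not in Vasc or Mes/Per. At ZT16 they did so in PST (219 and 128 CPM against 59.1 and 49.8) and DCT1. Ndufaf4, an assembly factor of complex I, rose between ZT4 and ZT16 in DCT1 of Ctrl mice, from 69.1 and 50.4 CPM to 142 and 119.6 CPM (1.15, SE 0.26, adjusted p = 0.0423 by edgeR). So did Pdss1, which makes the side chain of coenzyme Q, from 40.9 and 38.1 CPM to 73.4 and 85.9 CPM (1.01, SE 0.21, adjusted p = 0.0326 by edgeR). Taco1, an activator of the translation of a mitochondrially encoded complex IV subunit, fell in Mes/Per of cKOt mice between ZT4 and ZT16, from 172 and 239 CPM to 115 and 90.5 CPM (-1.0, SE 0.19, adjusted p = 0.0489 by edgeR). In cKOt mice its levels were also lower at ZT16 in PST, TAL and Vasc and overlapped in DCT1. In PCT they were higher at ZT16, at 662 and 398 CPM against 364 and 187 CPM at ZT4. Among the comparison lists, the ribosomal protein Rpl8 was higher at ZT16 in TAL of Ctrl mice (0.60, adjusted p = 0.0457 by edgeR), as was the proximal tubule enzyme Pck1 in TAL (1.02, adjusted p = 0.00610) and in Vasc (0.85, adjusted p = 0.0222). Pck1 is on the list of proximal tubule mRNAs read in other nuclei, which was set up to gauge free RNA from other cells. The part of such RNA in these values, and in the TAL and Vasc medians, was not tested. Of the brown fat list, Pdk4 was higher in TAL of cKOt mice at ZT4 (2.05, adjusted p = 0.00991 by edgeR) and Dio2 lower at ZT16 than at ZT4 in Mes/Per of cKOt mice (-4.15, adjusted p = 0.0463 by edgeR). Adipocyte-like nuclei numbered 25 and 41 in cKOt ZT4 and 2 and 0 in cKOt ZT16, and the Mes/Per clusters differed as well. The part of either in the Dio2 value was not tested.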

How the data were processed

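Single-nucleus RNA-seq of frozen kidneys from 8 mice was analyzed, with 2 mice per group and 1 library per mouse. Nuclei had been sorted by DAPI and processed with 10x Genomics 3′ chemistry. Per the labels, the submitters used bcl2fastq 2.20, Cell Ranger 7.1.0 and Seurat 5. In the methods the reference is mm10, in the submitters' notes GRCm39. The authors deposited, unnormalized, UMI counts for each gene in each called barcode. The counting of intronic reads is not stated in the sources used. RefSeq promoters (GRCm38.p6) and GENCODE overlaps (GRCm39) were joined by symbol or identifier, with no coordinates moved between builds.

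Nuclei were kept from 500 genes and 800 UMIs upward, with a mitochondrial share of no more than 2%. Genes, lists and the rule for naming genes were chosen with earlier results of these data known. Counts were summed per library, or per class and library, and tested with edgeR 4.0.16 (TMM, quasi-likelihood, limma 3.58.1, R 4.3.3). There was 1 model of 4 groups for protein-coding nuclear genes reaching 5 counts in both replicates of a compared group. Adjustment (Benjamini-Hochberg) was over all genes tested, with calls under 0.05. DESeq2 1.42.0 served as alternative. CPM are UMIs per 1000000 protein-coding UMIs, on TMM-scaled totals in the whole kidney and in the 6 classes compared between groups. Between 36548873 and 54500820 UMIs per library limit the precision of rare genes such as Cox8b. The p-values set group differences against the spread between libraries of a group, estimated over the 4 groups together. With 1 library per mouse, that spread holds both mouse and preparation.

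Clustering used scanpy 1.11.5, scikit-learn 1.9.0 and leidenalg 0.10.2 (2000 variable genes without the 83 genes, 1000 principal components, 20 neighbours, resolution 2.2), with Python 3.11.15, numpy 2.4.6, scipy 1.17.1, pandas 2.3.3 and matplotlib 3.10.9. Scrublet (expected rate 8%) marked 4367 nuclei (5.37%) as doublets, which were kept. A cluster was named when its markers had a mean z of at least 0.9, with at least 3 markers 2-fold above other nuclei and found in 10% of its nuclei, and when it had 20 nuclei or more and under 50% doublets. This rule follows an earlier analysis of these data. Named genes were, in whole-kidney sums, those with the smallest p per comparison and direction (up to 3), and within classes those past the limit. To these came the rare isoforms, the 2 genes per complex with the most UMIs, the 10 with the highest Gini coefficient, those next to the limit of 100 UMIs, and called genes of the other lists. Genes named within classes without passing the limit, and the 6 PST genes high in 1 library, were chosen after their values were seen. The tests were checked on simulated data.

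Alternatives were DESeq2, another normalization (RLE), no filter on low counts, all nuclear genes, only the groups compared, a replicate block, each library left out, 50 principal components, doublets left out, a mitochondrial limit of 5%, a minimum of 1000 UMIs per gene and, chosen after seeing the data, adipocyte-like nuclei left out. The replicate numbers of the labels do not mark shared animals.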

Additional observations from a re-analysis of the deposited data

How the results depend on the processing

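With edgeR as the test, the count of respiratory chain genes called stayed at 0 in the whole kidney with RLE normalization, without a filter on low counts, with all nuclear genes, with only the groups compared, and without adipocyte-like nuclei, and in the 6 classes with 50 principal components. With DESeq2 it was 1 for cKOt against Ctrl at ZT4 and 1 for ZT16 against ZT4 in cKOt, in each case Cox8b (log2 fold change 4.14 and -6.56). With 1 library left out in turn it ranged from 0 to 1 at ZT4 (Cox8b without cKOt ZT4 replicate 1, 4.69, adjusted p = 0.0404 by edgeR, but 2.79 and adjusted p = 0.216 without replicate 2, over a range of 2.79 to 5.06) and from 0 to 1 in PST, and was 0 elsewhere. The lone library of a group is then assumed to vary like the others. The cause of these changes was not tested. The median log2 fold change ranged from 0.0613 to 0.262 between time points in Ctrl, from 0.02 to 0.09 in cKOt, from -0.0962 to 0.0995 for genotype at ZT4, where its sign thus turned, and from -0.17 to -0.09 at ZT16. With a replicate block, edgeR called 0 genes in all comparisons of the whole kidney and the 6 classes, and Cox8b had an adjusted p of 0.0962 at ZT4 and 0.154 between time points in cKOt. Deviations of same-numbered libraries correlated at 0.28 and 0.29 between genotypes at the same time and at -0.19 to 0.13 in the other 4 pairs of groups. Not every pair exceeded 0.1, and the numbers were not used to pair libraries. The replicate block gave each number 1 effect across all 4 groups, so a pairing within each time point was not tested.

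With 50 principal components 86.6% of named nuclei kept their name, and the mean level in thinAL was 0.383%. With doublets left out the mean level in adipocyte-like nuclei was 0.646%. With a minimum of 1000 UMIs 78 genes remained, and with a mitochondrial limit of 5% there were 83. With 2 mice per group and 0 to 77 UMIs per library, depth limits Cox8b, as it does Cox6a2 (107 UMIs) and Cox4i2 (173 UMIs). The spread between libraries, each from 1 mouse, limits Cox8b as well, with 17 and 77 UMIs in the cKOt ZT4 libraries. Its difference at ZT4 ranged from 2.79 to 5.06 with 1 library left out. For abundant subunits the spread between libraries, with SEs of 0.12 to 0.18 on the log2 scale for those named in the whole kidney, sets the limit.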
